A study of Mus musculus with 2 samples.

Results

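Collagen chain genes were examined in mRNA-seq data from 1 library of Dnmt1+/+ MEFs (mouse embryonic fibroblasts) and 1 library of Dnmt1-/- MEFs. The members are every entry whose symbol has the form of a collagen chain (Col, the number of the collagen type, the letter a and the number of the chain), whatever its status. No measured value enters this rule, but the set was picked with earlier results of these data known. The rule gave 42 entries, 1 per gene, out of 29126 entries of which 20906 carried a symbol. Of the 42, 11 encode fibrillar chains, 8 belong to basement membranes and 23 to other classes. The study describes the Dnmt1-/- cells as carrying, on both chromosomes, a hypomorphic form of Dnmt1, the maintenance DNA methyltransferase gene. Both lines are also null for trp53, so that the control lacks p53 too. No age, sex or strain was available for either line, and each genotype is 1 line and 1 library, so a difference between genotypes cannot be told apart from a difference between lines or cultures.

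Collagens are secreted proteins built from long helical stretches in which glycine recurs at regular intervals, and chains join in sets before they leave the cell. Fibrillar collagens such as types I, III and V form the fibres of connective tissue and are a main product of fibroblasts. Type IV collagen forms the sheet-like network of basement membranes, and its chains assemble in fixed combinations in which Col4a1 joins Col4a2 and Col4a5 joins Col4a6 or the Col4a3 and Col4a4 chains. Other classes form beaded filaments (type VI), link or decorate fibrils (the FACIT group, fibril-associated collagens with interrupted helices, such as types XII and XVI), anchor epithelia (type VII) or sit in the cell membrane (such as types XIII, XVII, XXIII and XXV).

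Levels are given as RPKM (reads scaled by transcript length and by the mapped reads of the library), so genes and libraries can be set side by side. This scaling need not centre the 2 libraries on each other, and the median change of all entries compared is given below. Changes are differences of log2(RPKM + 0.1), Dnmt1-/- minus Dnmt1+/+, a scale that understates changes of low genes. With 1 library per genotype there is no replicate check, no test and no p-value, and "higher" or "lower" describes these 2 libraries. A gene was counted as higher or lower when it changed by more than 2-fold and had status OK and reached 1 RPKM in either library. In bulk RNA, fewer cells of a type and less RNA per cell cannot be told apart. Dnmt1 itself was at 65.2 RPKM in Dnmt1+/+ and 14.5 in Dnmt1-/-, with a log2 change of -2.16. The median log2 change of all 11244 entries compared in this way was -0.14. The fibroblast marker Vim, an intermediate filament gene, was high in both libraries at 2269 and 1873 RPKM, and the summed RPKM of 10 fibroblast markers was 3447 in Dnmt1+/+ and 3445 in Dnmt1-/-. Within that list Thy1 (4.84 and 0.129 RPKM), Fn1 (664 and 235) and Postn (177 and 13.7) were lower in Dnmt1-/- MEFs, and Pdgfra (6.95 and 18.7) and S100a4 (290 and 1262) were higher. The like sums thus hold changes in both directions. Lum (0.0997 and 0.0668) and Fap (0.0315 and 0) were near 0 in both libraries. The endothelial markers summed to 0.475 and 0.679 RPKM over 6 entries, and the leukocyte markers to 0.666 and 9.73 over 6 entries, of which Ptprc, Tyrobp and Laptm5 were listed at 0 in both libraries while Csf1r was at 0.0702 and 6.08 and Cd68 at 0.596 and 3.63. The 6 skeletal muscle markers summed to 62.0 and 66.6 RPKM. Most of this lay with Acta1 (28.8 and 42.8) and with a joint entry of Ttn, Ccdc141, Cwc22 and Sestd1 (32.7 and 20.4). Myf5 was higher at 0.106 and 3.28, and Myod1 was at 0 and 0.0489. Myog was at 0.0130 and 0.0355 and Des at 0.318 and 0.0780. The 6 glial and neural markers summed to 67.7 and 139 RPKM, with Nes higher at 50 and 126 and Sox10 at 0.00895 and 0. The part of these other cell type markers in the results was not tested.

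In the Dnmt1-/- library, type I and type III collagen and the cartilage chains Col2a1 and Col11a1 had lower RPKM than in Dnmt1+/+. The X-linked type IV pair was lower by a wide margin. Types V (Col5a2), VII, XII and XXIII had higher RPKM. Of the 42 members, 21 reached 1 RPKM in either library, and all 21 had status OK. Of these 21, 4 were higher (19.0%) and 6 were lower (28.6%) in Dnmt1-/- MEFs. Among all 11244 entries compared, 8.47% were higher and 10.9% were lower by the same rule. The filter bears on this count, because Col2a1 and Col4a6 passed it only through Dnmt1+/+ and Col23a1 only through Dnmt1-/-, while 18 members reached 1 RPKM in both libraries. The median log2 change of the 21 was -0.07, with quartiles of -1.38 and 0.57, against quartiles of -0.56 and 0.27 for all entries compared. By class the median was -0.81 for 8 fibrillar entries, -1.44 for 5 basement membrane entries and 0.62 for 8 entries of the other classes. The basement membrane median is the value of Col18a1, whose locus holds a further entry without a symbol, and it was 0.25 for the 3 entries of this class with a mean RPKM of at least 10 and -0.73 for all 8 without a filter. Of the entries compared, none of the other classes was lower and none of basement membranes was higher. These are 8 and 5 entries, too few to set against the shares of all entries. Without the filter 2 members of the other classes were lower by more than 2-fold.

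**Figure D1:**
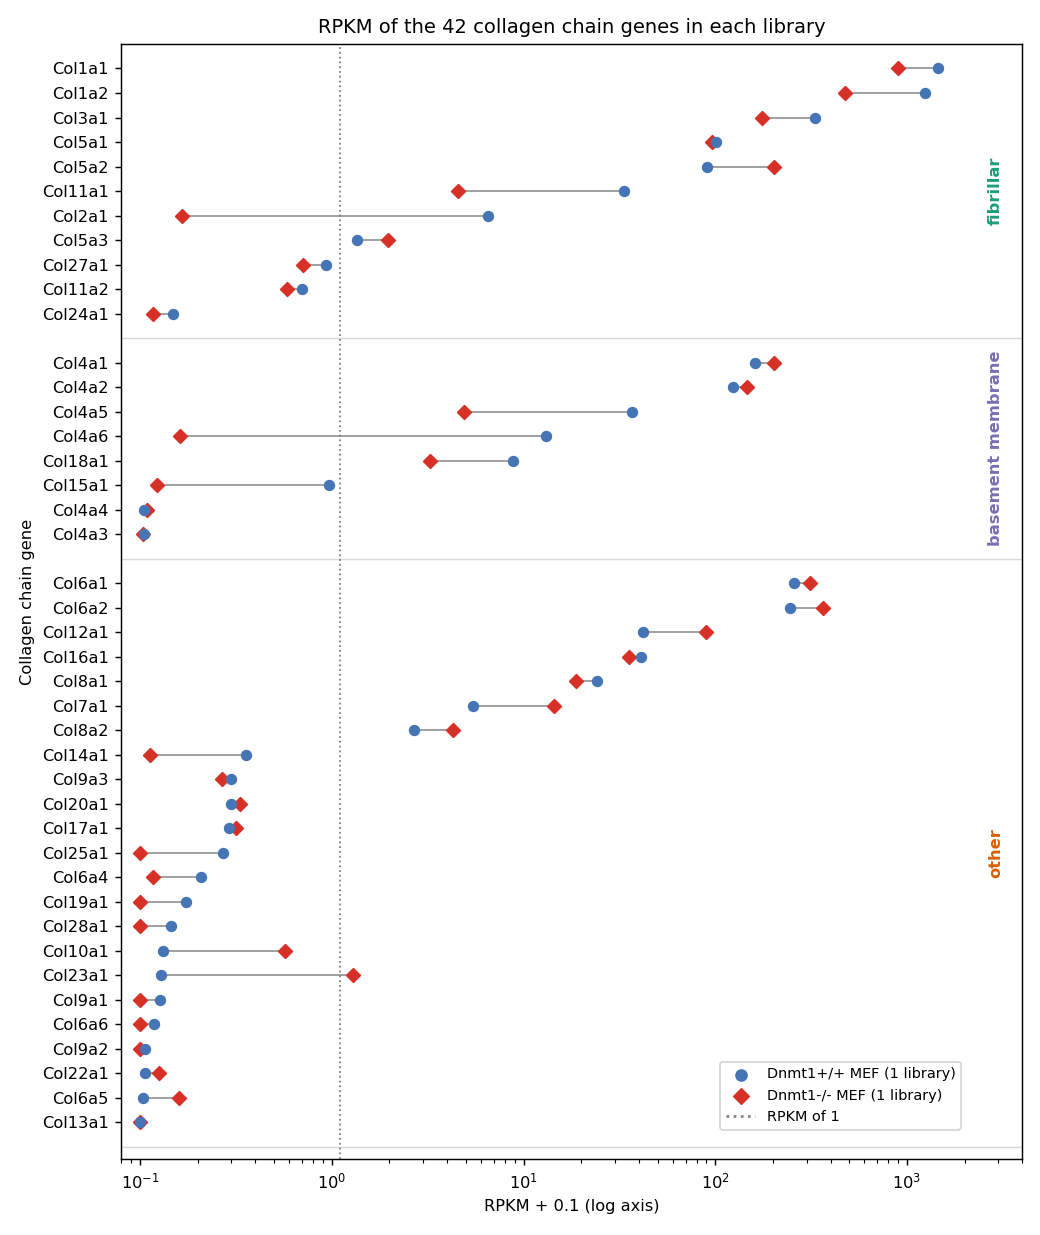
RPKM + 0.1 of each of the 42 collagen chain genes on a log axis, in Dnmt1+/+ (blue circles) and Dnmt1-/- MEFs (red diamonds), grouped by class and ordered by the Dnmt1+/+ value, with the dotted line at an RPKM of 1. Values span from 0 to 1448 RPKM, and the longest lines between the libraries belong to Col4a6, Col2a1 and Col23a1.

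Col1a1 and Col1a2 encode the chains of type I collagen, the most abundant collagen of skin and bone. Col1a1, on chromosome 11 of mm9 from 94797538 to 94814356 (plus strand), was at 1448 RPKM in Dnmt1+/+ and 898 in Dnmt1-/-, with a log2 change of -0.69. It was the highest collagen in both libraries and ranked 15 in Dnmt1+/+ and 32 in Dnmt1-/- among the 14865 entries with a symbol and status OK. Col1a2, on chromosome 6 from 4454814 to 4491543 (plus strand), was at 1241 and 476 RPKM, a log2 change of -1.38, and its rank went from 20 to 82. Both chains thus had a lower RPKM in Dnmt1-/- MEFs, but unequally, and Col1a1 stayed within 2-fold while Col1a2 did not. The ratio of Col1a1 to Col1a2 was 1.17 in Dnmt1+/+ and 1.89 in Dnmt1-/-. Col3a1, which encodes type III collagen and lies on chromosome 1 from 45368383 to 45406551 (plus strand), was at 332 and 175 RPKM, a log2 change of -0.92 that stayed just within 2-fold.

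Type V collagen joins type I fibrils and is known to limit their diameter. Its chain gene Col5a2, which lies on chromosome 1 (45431166 to 45560127, minus strand), was at 90.1 RPKM in Dnmt1+/+ and 202 in Dnmt1-/-, with a log2 change of 1.17. Col5a2 is the neighbour of Col3a1, whose 3′ end faces its own across 24614 bp, and the changes of these neighbours had opposite signs. The ratio of Col5a2 to Col3a1 was 0.271 in Dnmt1+/+ and 1.16 in Dnmt1-/-. Col5a1, the partner chain on chromosome 2, was at 101 and 95.9 RPKM, a log2 change of -0.07 that became 0.072 after the median change of all entries was subtracted. The ratio of Col5a1 to Col5a2 therefore went from 1.12 to 0.474. Col5a3 was low in both libraries, at 1.25 and 1.88 RPKM.

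Of the remaining fibrillar chains, those of types II and XI are best known from cartilage, where they form the fibrils. Col11a1, on chromosome 3 from 113733458 to 113923636 (plus strand), was at 33.3 RPKM in Dnmt1+/+ and 4.45 in Dnmt1-/-, with a log2 change of -2.88. Col2a1, which lies on chromosome 15 (97806033 to 97835155, minus strand), was at 6.40 and 0.0661 RPKM, a log2 change of -5.29. Both were lower in Dnmt1-/- MEFs. Their partner Col11a2 was at 0.602 and 0.487 RPKM, with a log2 change of -0.26. The type IX chains, which sit on cartilage fibrils, were near 0 in both libraries, with Col9a3 highest at 0.198 and 0.167 RPKM. Of 6 cartilage markers that are not collagens, Matn1 and Hapln1 were listed at 0 in both libraries and Acan at 0 and 0.00395 RPKM. Sox9, a regulator of cartilage genes, was at 8.28 and 5.41 RPKM, and Comp at 0.344 and 4.96. The 6 together summed to 8.90 RPKM in Dnmt1+/+ and 10.6 in Dnmt1-/-. The part of the list in those results was not tested. Col24a1 and Col27a1 stayed under 1 RPKM, at 0.0487 and 0.0174 and at 0.835 and 0.605 RPKM.

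**Figure D2:**
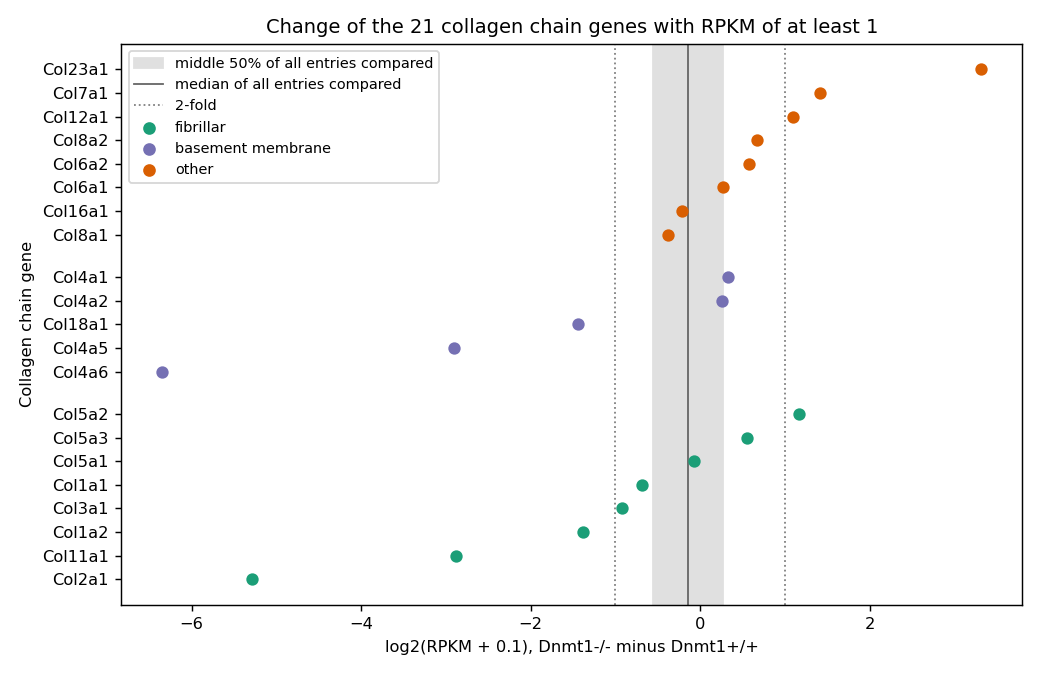
Difference of log2(RPKM + 0.1) between Dnmt1-/- and Dnmt1+/+ MEFs for the 21 collagen chain genes that reached 1 RPKM in either library, 1 point per gene coloured by class. Dotted lines mark a 2-fold difference, the grey band the middle 50% of all 11244 entries compared (-0.56 to 0.27) and the solid line their median of -0.14, and 6 members lie left of the lower line and 4 right of the upper one.

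The 6 type IV genes lie as head-to-head pairs, each pair read outwards from the stretch between its starts, and the pairs differed from each other in level and in change. Col4a1 and Col4a2, which encode the chains of the common type IV network, lie on chromosome 8 of mm9 and their annotated 5′ ends overlap, with 21 bp between the starts. Col4a1 was at 161 RPKM in Dnmt1+/+ and 203 in Dnmt1-/-, with a log2 change of 0.33. Col4a2 was at 123 and 147 RPKM, a log2 change of 0.25. The changes of this pair were nearly the same, and the ratio of Col4a1 to Col4a2 was 1.31 and 1.38. Col4a5 and Col4a6 lie on the X chromosome with 1309 bp between their starts, Col4a5 on the plus strand from 137909928 to 138123778 and Col4a6 on the minus strand from 137599946 to 137908619. Col4a5 was at 36.5 RPKM in Dnmt1+/+ and 4.81 in Dnmt1-/-, with a log2 change of -2.90. Col4a6 was at 13.0 and 0.0612 RPKM, a log2 change of -6.35, the largest of any member. The X-linked pair was lower at both genes, but Col4a6 more so, and the ratio of Col4a5 to Col4a6 went from 2.81 to 78.6. Among 394 X-linked entries compared, the median log2 change was -0.39, and 24.9% were lower by more than 2-fold. The third pair, Col4a3 and Col4a4 on chromosome 1 with 72 bp between their starts, was close to 0 in both libraries, with values from 0.00396 to 0.00847 RPKM. The ratio of Col4a1 to Col4a5 went from 4.42 to 42.2.

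The promoters of both expressed type IV pairs are shown because the pairs differ in CpG content, the dinucleotide at which Dnmt1 maintains methylation. Each window runs from 250 bases before to 50 bases after the RefSeq start (GRCm38.p6, a later build than mm9, read 5′ to 3′ in the direction of the gene), and each CpG is in capitals.
Col4a1, chr8:11312777-11313076, minus strand: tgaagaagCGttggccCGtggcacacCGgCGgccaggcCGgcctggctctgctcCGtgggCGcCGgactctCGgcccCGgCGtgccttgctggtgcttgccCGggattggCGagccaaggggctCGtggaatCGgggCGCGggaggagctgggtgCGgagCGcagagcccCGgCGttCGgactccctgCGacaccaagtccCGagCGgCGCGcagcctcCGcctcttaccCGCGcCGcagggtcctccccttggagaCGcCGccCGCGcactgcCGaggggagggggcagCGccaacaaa
Col4a2, chr8:11312555-11312854, plus strand: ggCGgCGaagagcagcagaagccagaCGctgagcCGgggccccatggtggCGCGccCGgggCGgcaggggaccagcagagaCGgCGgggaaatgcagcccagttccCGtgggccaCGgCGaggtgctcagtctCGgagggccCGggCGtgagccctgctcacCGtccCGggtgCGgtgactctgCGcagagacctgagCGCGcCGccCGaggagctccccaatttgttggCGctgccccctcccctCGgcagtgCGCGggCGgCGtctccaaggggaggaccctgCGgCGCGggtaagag
Col4a5, chrX:141475169-141475468, plus strand: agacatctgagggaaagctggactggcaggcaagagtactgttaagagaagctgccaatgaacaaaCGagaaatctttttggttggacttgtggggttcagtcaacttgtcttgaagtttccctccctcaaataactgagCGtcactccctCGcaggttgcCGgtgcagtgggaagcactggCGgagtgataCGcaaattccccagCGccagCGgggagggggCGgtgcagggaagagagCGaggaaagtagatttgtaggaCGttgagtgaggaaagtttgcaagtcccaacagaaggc
Col4a6, chrX:141474027-141474326, minus strand: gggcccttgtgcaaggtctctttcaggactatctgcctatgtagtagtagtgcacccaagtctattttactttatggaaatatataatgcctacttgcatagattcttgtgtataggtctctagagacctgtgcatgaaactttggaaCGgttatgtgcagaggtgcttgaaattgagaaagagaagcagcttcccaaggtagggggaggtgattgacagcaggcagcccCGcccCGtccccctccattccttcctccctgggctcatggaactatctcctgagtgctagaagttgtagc

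The Col4a1 and Col4a2 windows share 78 bases and hold 37 and 33 CpGs. Only 5.58% and 8.56% of all 32851 RefSeq windows of this length hold as many or more. The Col4a5 window holds 11 CpGs and the Col4a6 window 3, numbers that are reached by 41.4% and 76.7% of all windows. A CpG reads the same on both strands, and 94.6% of all windows hold at least 1. DNA methylation of these windows was not analysed here.

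The multiplexins, types XV and XVIII, carry their helices in short blocks and sit in the basement membrane zone, where the end of the type XVIII chain is the source of endostatin. Col18a1, which lies on chromosome 10 (76514923 to 76629293, minus strand), was at 8.75 RPKM in Dnmt1+/+ and 3.16 in Dnmt1-/-, with a log2 change of -1.44. A second entry at the same locus, without a symbol, was at 10.2 and 9.65 RPKM, and how the reads of this locus were divided between the entries is not given in the sources used here, so the lower value of Col18a1 is uncertain. Col15a1 was at 0.865 and 0.0219 RPKM and stayed under the minimum of 1. Of 7 epithelial marker entries, Krt19 was at 6.90 and 0.326 RPKM, the joint entry of Krt14 and Krt17 at 0.0349 and 1.46, Krt18 at 0.0358 and 0.441 and Krt8 at 0 and 0.216. Cdh1 was at 0.203 and 0.0700, Epcam at 0.0466 and 0.00921 and Krt5 at 0.0425 and 0. The list summed to 7.26 RPKM in Dnmt1+/+ and 2.52 in Dnmt1-/-, a difference that lay with Krt19, and its part in the basement membrane results was not tested.

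Type VI collagen forms beaded filaments around cells and was high in both libraries. Col6a1, on chromosome 10, was at 259 RPKM in Dnmt1+/+ and 312 in Dnmt1-/- MEFs, and Col6a2, 85161 bp away on the same strand, was at 246 and 367 RPKM. Their log2 changes were 0.27 and 0.57, both within 2-fold, and the ratio of Col6a1 to Col6a2 was 1.05 and 0.852. The rule matched no entry for Col6a3, the other chain of the common type VI molecule, or for Col26a1. The annotated Col6a3 gene on chromosome 1 (92663435 to 92740529, minus strand) is overlapped by 3 entries without a symbol, which were at 62.6, 51.9 and 13.7 RPKM in Dnmt1+/+ and at 130, 97.1 and 19.4 in Dnmt1-/-. These entries are outside the 42 and were looked for after the symbol had been found to be missing, and the strand of each entry is not given in the table. The related genes Col6a4, Col6a5 and Col6a6, which lie side by side on chromosome 9, were at or under 0.109 RPKM in both libraries.

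Among the FACIT chains, Col12a1, which decorates type I fibrils in tendon and other loaded tissues, was at 41.9 RPKM in Dnmt1+/+ and 89.6 in Dnmt1-/-, with a log2 change of 1.09. It lies on chromosome 9 (79446798 to 79566638, minus strand). Col16a1 was at 40.8 and 35.2 RPKM, a log2 change of -0.21. The rest of this group was low in both libraries, and Col14a1, a near relative of Col12a1, was at 0.256 and 0.0132 RPKM. The type VIII chains, which form short-chain networks around vessels and in the cornea, stayed within 2-fold, with Col8a1 at 24.2 and 18.6 RPKM and Col8a2 at 2.59 and 4.19. Col10a1, the short-chain collagen of growth plate cartilage, was at 0.0317 and 0.468 RPKM and lies within the locus of Nt5dc1, which was at 4.66 and 4.82.

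Col7a1 encodes the anchoring fibril of skin, which ties the epidermal basement membrane to the dermis and is made by keratinocytes and fibroblasts. It was at 5.34 RPKM in Dnmt1+/+ and 14.3 in Dnmt1-/-, with a log2 change of 1.41. It lies on chromosome 9 from 108855631 to 108886920 (plus strand), and its entry is joined with that of the microRNA gene Mir711. Col23a1, a membrane collagen on chromosome 11 from 51103422 to 51397420 (plus strand), was at 0.0291 RPKM in Dnmt1+/+ and 1.19 in Dnmt1-/-, with a log2 change of 3.32 and the largest increase of any member. Its level in Dnmt1-/- was still only just above the minimum of 1 RPKM. The other membrane collagens were near 0, with Col17a1 at 0.192 and 0.217 RPKM, Col25a1 at 0.171 and 0, and Col13a1 listed at 0 in both libraries.

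Promoters are shown next for Col23a1, the member with the largest increase, and for Col11a1, the fibrillar gene with the largest decrease among those with a RefSeq window, with CpGs in capitals as above.
Col23a1, chr11:51289670-51289969, plus strand: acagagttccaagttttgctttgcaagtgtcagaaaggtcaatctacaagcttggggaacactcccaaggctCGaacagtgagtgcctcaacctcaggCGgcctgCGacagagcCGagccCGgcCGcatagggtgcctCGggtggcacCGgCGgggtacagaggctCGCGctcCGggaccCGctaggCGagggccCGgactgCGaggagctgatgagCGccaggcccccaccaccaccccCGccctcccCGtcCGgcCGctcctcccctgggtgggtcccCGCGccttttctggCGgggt
Col11a1, chr3:114030290-114030589, plus strand: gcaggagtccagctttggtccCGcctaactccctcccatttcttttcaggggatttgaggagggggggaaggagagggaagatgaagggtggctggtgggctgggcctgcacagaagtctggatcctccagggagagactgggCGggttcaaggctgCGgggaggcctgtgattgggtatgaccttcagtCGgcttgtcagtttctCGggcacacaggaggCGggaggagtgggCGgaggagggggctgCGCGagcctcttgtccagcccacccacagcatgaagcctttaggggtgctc

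The Col23a1 window holds 24 CpGs and that of Col11a1 holds 9, against a median of 7 over all RefSeq windows. A window was found by symbol for 34 of the 42 members, which left out Col1a1, Col2a1, Col4a3, Col5a2, Col9a3, Col12a1, Col14a1 and Col22a1. The median of the 34 was 12.5 CpGs, taking the richer window for genes with more than 1. Among the 17 members compared that had a window, the 5 lower ones held 3 to 16 CpGs, the 2 higher ones 12 and 24, and the 10 within 2-fold between 0 and 37. At both ends of this range a gene stayed within 2-fold. Col3a1, at 0 CpGs, had a log2 change of -0.92, just short of the threshold, and Col4a1, at 37, one of 0.33. Across these 17 genes Spearman's rho between CpG number and change was 0.50, which is a description across genes of the same 2 libraries, in which the windows of Col4a1 and Col4a2 overlap.

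**Figure D3:**
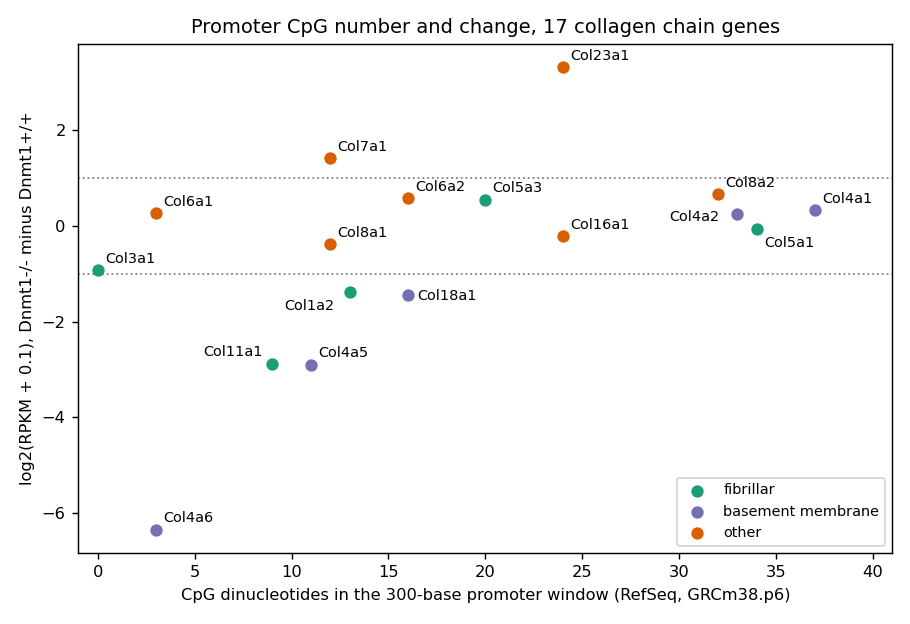
Number of CpG dinucleotides in the promoter window of 300 bases (x axis) against the difference of log2(RPKM + 0.1), Dnmt1-/- minus Dnmt1+/+ (y axis), for 17 collagen chain genes coloured by class, with dotted lines at 2-fold. The 5 points below the lower line hold 3 to 16 CpGs, and the genes with more than 30 CpGs, Col4a1, Col4a2, Col5a1 and Col8a2, lie between the lines.

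Of the 42 members, 21 were under the minimum, and 11 of them had less than 0.1 RPKM in both libraries. Of the 21, Col10a1 (2.11), Col14a1 (-1.66), Col15a1 (-2.98) and Col25a1 (-1.44) had log2 changes past 2-fold but were not counted. In Dnmt1-/- MEFs 6 members were listed at 0 that had a value above 0 in Dnmt1+/+, namely Col6a6, Col9a1, Col9a2, Col19a1, Col25a1 and Col28a1, and their Dnmt1+/+ values lay between 0.00676 and 0.171 RPKM. None was listed at 0 in Dnmt1+/+ only. Status NOTEST was given to 5 members (Col4a3, Col9a1, Col9a2, Col13a1 and Col28a1). Col20a1, at 0.198 and 0.231 RPKM, and Col22a1, at 0.00562 and 0.0252, were low in both. At these levels the RPKM values carry no counts from which an interval could be given.

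Among entries with a symbol, collagen chain genes held a smaller share of the summed RPKM in Dnmt1-/- than in Dnmt1+/+ MEFs, and the types held different parts of it. Entries without a symbol, which hold most of the RPKM in the table, are outside these shares. The RPKM of the members with status OK summed to 4219 in Dnmt1+/+ and 3055 in Dnmt1-/-, which is 1.14% and 0.838% of the summed RPKM of all entries with a symbol and status OK. The difference lay with types I and III. Without Col1a1, Col1a2 and Col3a1 the sum was 1198 in Dnmt1+/+ and 1507 in Dnmt1-/-, or 0.323% and 0.414%. Type I chains accounted for 63.7% of the collagen sum in Dnmt1+/+ and 45.0% in Dnmt1-/-, type VI chains for 11.98% and 22.2%, type V for 4.55% and 9.82% and type IV for 7.92% and 11.6%. The 3 entries at Col6a3 are not in these sums.

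**Figure D4:**
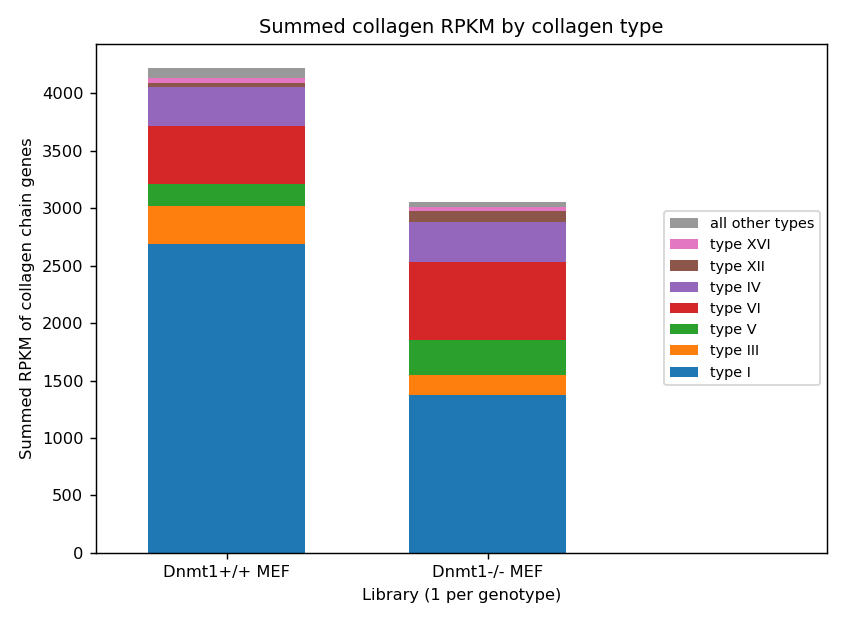
Summed RPKM of the collagen chain genes with status OK in each library, stacked by collagen type, with the types that held under 1% of the sum in both libraries joined as all other types. The total was 4219 in Dnmt1+/+ and 3055 in Dnmt1-/- MEFs, and the type I part was 2689 and 1374.

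Making a collagen needs enzymes that hydroxylate proline and lysine, chaperones that guard the helix, proteases that trim the ends and oxidases that cross-link the fibre. Of 32 such genes listed, 28 were compared, and 3 were higher, 3 lower and 22 within 2-fold, with a median log2 change of 0.13. Against 8.47% higher and 10.9% lower among all entries compared, these counts are no result about the list. The prolyl 4-hydroxylase subunits, which stabilise the helix, were all within 2-fold, with P4hb at 512 and 557 RPKM and P4ha1 at 69.0 and 80.4. Serpinh1, the collagen chaperone also called Hsp47, was at 948 and 512 RPKM, a log2 change of -0.89. The 3 lower genes were P3h1, at 33.8 and 10.5 RPKM, P3h2, at 6.52 and 3.16, and Sec23a, at 34.7 and 16.4. P3h1 and P3h2 are prolyl 3-hydroxylases, and Sec23a is part of the coat of vesicles that leave the endoplasmic reticulum. The entry holding P3h3, of the same family as P3h1, was higher, at 15.8 and 38.7 RPKM. It is joined with that of Gpr162, so these values cannot be given to P3h3 alone.

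Both other higher genes were among the 6 compared that take part in trimming procollagen, as proteases or as their enhancers. These 6 are too few to set against the 8.47% higher among all entries compared. Adamts2, the protease that removes the amino-terminal propeptide of type I collagen, was at 2.73 RPKM in Dnmt1+/+ and 18.0 in Dnmt1-/-, with a log2 change of 2.68. Pcolce2, an enhancer of the carboxy-terminal protease, was at 7.61 and 33.6 RPKM, a log2 change of 2.13. Its relative Pcolce was at 148 and 278 RPKM and the protease Bmp1 at 34.4 and 33.3, both within 2-fold. Lox, which starts cross-linking, was at 104 and 206 RPKM, a log2 change of 0.98, and the 4 Loxl genes also stayed within 2-fold. Of 8 collagen receptor genes, 6 were compared and 1 was higher. Beside 8.47% higher and 10.9% lower among all entries compared, this count is no result about the list. The higher one was Itga11, the alpha chain of a collagen-binding integrin of fibroblasts, at 10.9 and 25.1 RPKM. Its partner Itgb1 was at 319 and 439 RPKM and the collagen-activated kinase Ddr2 at 49.0 and 44.9.

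**Figure D5:**
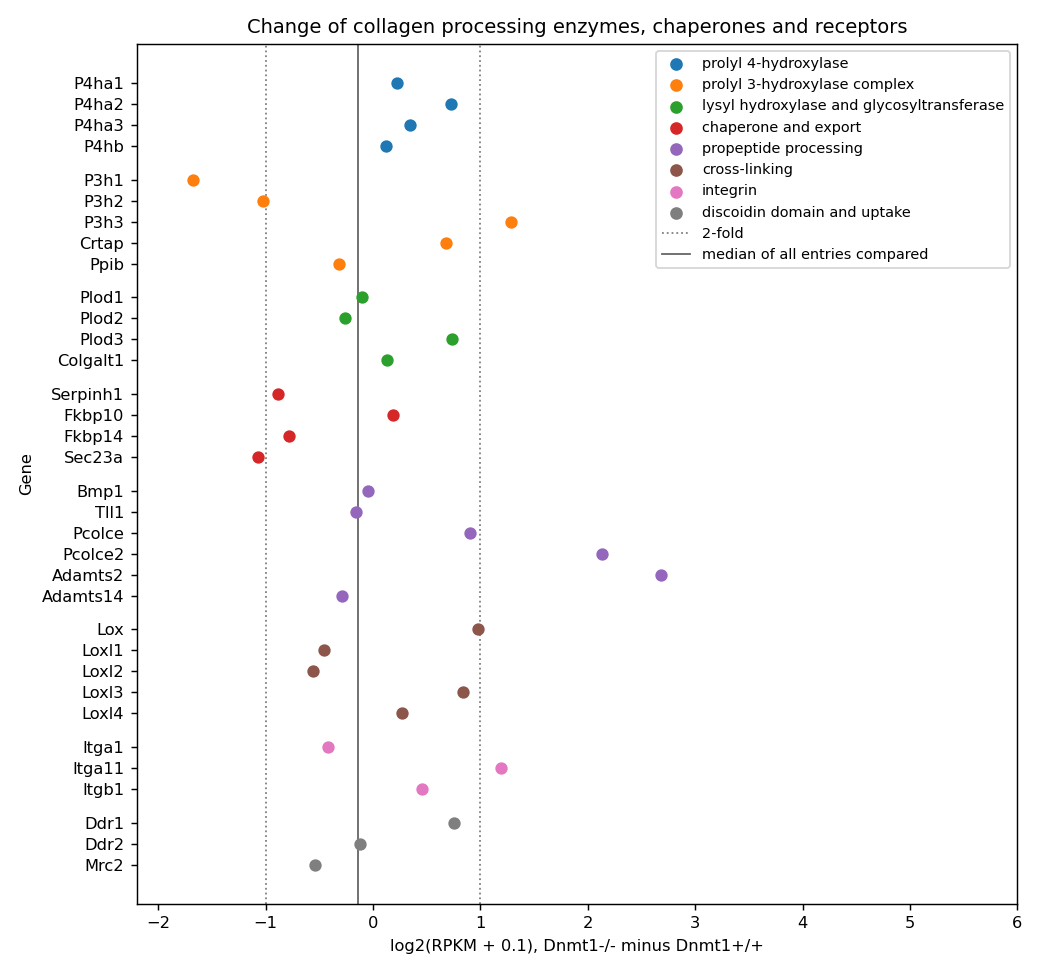
Difference of log2(RPKM + 0.1), Dnmt1-/- minus Dnmt1+/+, for 28 genes of collagen synthesis and 6 collagen receptor genes that reached 1 RPKM in either library, coloured by role. Dotted lines mark 2-fold and the solid line the median of all entries compared, and Adamts2 (2.68) and Pcolce2 (2.13) lie furthest to the right and P3h1 (-1.67) furthest to the left.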

How the data were processed

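RNA from MEFs was read by the authors as strand-specific 50 bp single-end mRNA-seq, with 1 library per genotype. Per the labels and the study's methods, reads were mapped to mm9 with TopHat, assembled with Cufflinks and measured with Cuffdiff, with versions not given in the sources used here. The authors deposited one RPKM value per entry and library. The columns are named for wild-type and knock-out, which the study defines as Dnmt1+/+ and Dnmt1-/-. RPKM carries no counts, so depth sets no interval here. Whether reads were assigned by strand is not given, and values of overlapping entries are uncertain.

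Changes were taken on log2(RPKM + 0.1). Entries with a symbol, status OK and 1 RPKM or more in either library were compared (11244). Most RPKM lies in entries without a symbol, which stayed out of shares. The members, classes and gene lists were chosen with earlier results of these data known. Every member is given, and of the other lists those past 2-fold, those with the highest RPKM. Partners of these genes and single markers (such as P4ha1, Bmp1, Ddr2, Acan and Epcam) were added after their values were seen. Positions are from GENCODE M1 (NCBIM37, the mm9 build) and promoter windows from RefSeq (GRCm38.p6). The counting of changes was tested on simulated data. Python 3.11.15, numpy 2.4.6, pandas 2.3.3 and matplotlib 3.10.9 were used.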

Additional observations from a re-analysis of the deposited data

Results flagged for a closer look

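The 3 entries without a symbol at the annotated Col6a3 gene were outside the comparison by symbol, and all 3 had a higher RPKM in Dnmt1-/- than in Dnmt1+/+ MEFs. The 2 entries that span chromosome 1 of mm9 from 92678915 to 92740768 were at 130.4 and 19.41 RPKM in Dnmt1-/-, against 62.6 and 13.7 in Dnmt1+/+. The entry from 92663467 to 92678798 was at 97.15 RPKM, against 51.9. Their log2 changes were 1.06, 0.50 and 0.90. With 1 library per genotype the differences were not tested.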

How the results depend on the processing

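The count of lower members (6 of 21) stayed within 1.5 times under each alternative tried, and so did the count of higher members (4), except that 1 was left at a 3-fold threshold. Each of the 21 members compared kept its side of the 2-fold threshold with a pseudocount of 1 or 0.01 and after subtraction of the median change of all entries or of ubiquitously expressed genes, while of the 21 under the minimum 8 went past it with a pseudocount of 0.01 and 4 no longer passed it with a pseudocount of 1. Without the filter on low RPKM, among the 37 members with status OK, the fibrillar median was -0.41 and the median of the other classes 0.15. For all 23 members of the other classes, whatever their status, the median was 0. The basement membrane median turned from -1.44 to 0.25 for the 3 entries with a mean RPKM of at least 10. The median of all members changed sign, to 0.072 and 0.044, when the median of all entries or of ubiquitously expressed genes was subtracted. It was 0.26 with the 3 Col6a3 entries included, an alternative chosen after seeing the data. That alternative counts 1 annotated gene as 3 entries, of which 2 have the same span. Leaving out Col1a1, Col1a2 and Col3a1 turned the collagen share from 1.14% and 0.838% to 0.323% in Dnmt1+/+ and 0.414% in Dnmt1-/-. No paired analysis was possible because each genotype has 1 library. RPKM values without counts or replicates limit every comparison, most of all for members under 1 RPKM.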
